A study of Homo sapiens with 17 samples.

Results

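The genes described here are the cyclins that drive the phases of the cell cycle and the 2 kinases that they switch on. They were chosen by gene symbol: the D-type cyclins CCND1, CCND2 and CCND3 and the E-type cyclins CCNE1 and CCNE2 as G1 cyclins, CCNA2, CCNB1 and CCNB2 as S and G2/M cyclins, and the kinases CDK1 and CDK2. A row was found for 9 of these 10 genes among the 9699 genes of the deposited table, and CCND2 was not analysed here. No measured value entered this rule, although earlier results of these data were known when the genes were chosen.

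The cells were BJ cells, human foreskin fibroblasts immortalized with hTERT, the catalytic subunit of telomerase, and all conditions share that immortalized background. RNA-Seq of poly(A) RNA measured transcript levels, and Ribo-Seq, which sequences the mRNA fragments that ribosomes protect from nuclease, measured translation, under 5 conditions: normal proliferation, quiescence after serum depletion, pre-senescence and senescence after 5 and 14 days of 4-OHT-Tamoxifen in cells carrying tamoxifen-inducible RASG12V, and transformation. The transformed cells carried hTERT, the p16INK4A and p53 knockdowns (KD) and SV40 small T, and received RASG12V by retrovirus, so that they differ from the proliferating cells in both knockdowns, small T and RASG12V at once and the part of each cannot be told apart. The labels give no 4-OHT treatment for proliferating or quiescent cells, and do not say whether those cells carried the inducible construct. The table gives 1 value per gene, assay and condition in each of 2 sequencing runs: run 1 with proliferating, quiescent and pre-senescent cells, and run 2 with proliferating, senescent and transformed cells. Of its 12 columns, 5 combine several libraries into 1 value by the authors and 7 hold 1 library, so there is no replicate spread, no test was possible and every difference below is a description of these columns.

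Cyclins are the regulatory subunits of cyclin-dependent kinases. D-type cyclins accumulate when growth factors act on a cell and, with CDK4 and CDK6, begin the phosphorylation of the retinoblastoma protein that releases E2F transcription factors. E-type cyclins with CDK2 complete that step and start DNA replication, CCNA2 acts with CDK2 in S phase and with CDK1 afterwards, and CCNB1 and CCNB2 with CDK1 drive entry into mitosis. CCNA2 and the B-type cyclins are made in a burst once per cycle and destroyed by the anaphase-promoting complex, and arrested cells are known to stop transcribing them through repressor complexes that bind their promoters.

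Values are FPKM, fragment counts scaled for transcript length and for the size of the library, so that genes can be set side by side, and the authors raised every value below 1 FPKM to 1. The floor value of 1 was held by 2.56% to 5.26% of genes in the RNA columns and by 2.74% to 5.73% in the Ribo-Seq columns. The deposited table holds no read counts, and the read totals of the libraries were not used here. In Ribo-Seq of run 2, the library titled as senescent carries the condition label of proliferation and the library titled as proliferating carries that of senescence; titles were followed here. Over 9699 genes, the Ribo-Seq column titled senescent had a Pearson r of 0.897 with senescent RNA and 0.780 with proliferating RNA of run 2, and the one titled proliferating had 0.875 with its own RNA and 0.796 with senescent RNA. Each of the 6 Ribo-Seq columns was most like the RNA column of the same title. This is a description across genes, and with the condition labels in place of the titles every Ribo-Seq difference of senescence against proliferation has the opposite sign and no member is past 2-fold in Ribo-Seq between senescent and transformed cells.

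The 8 fibroblast markers examined (among them VIM, COL1A1 and THY1) were all above the floor in each column, at 4.49 FPKM of RNA or more. Of the epithelial, endothelial and white blood cell markers, EPCAM, CDH1, PECAM1, CDH5, VWF and PTPRC were not analysed here, CD14 did not exceed 1.67 FPKM of RNA, and KRT8 lay between 4.84 and 18.8, KRT18 between 84.5 and 257, and CD68 between 38.3 and 132. KRT19 stood at 39.8 FPKM of RNA in proliferating cells of run 2, against 1.00 in those of run 1, and COL1A1 at 1328 against 371, so the proliferating columns of the 2 runs were not alike. CDKN2A, the gene of p16INK4A, was not lower in RNA of transformed cells than in proliferating cells of run 2, at 12.6 against 6.75 FPKM. It was lower there than the 17.2 FPKM of proliferating cells of run 1, and its Ribo-Seq level in transformed cells, 5.51 FPKM, was the lowest of the 6 columns, with 8.92 in proliferating cells of run 2. RNA of HRAS was 1254 FPKM or more in every condition except the transformed cells, at 312, and thus was high in the proliferating cells too. The labels do not name the RAS gene used, and what these values do to the results below was not tested.

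Promoter sequence is shown for the genes whose RNA was lowered most in senescence and, for contrast, for CCNE1, whose RNA was not. Windows of 250 bases before to 50 after a start site in RefSeq (build GRCh38.p14) were matched by symbol for 6 of the 10 genes, with 2 windows for CDK1 and 3 for CCND3. CCND1, CCND2, CCNE2 and CDK2 had none. The 150 bases that precede the start site follow, each 5′ to 3′ on the strand of the gene, with the CCAAT box (CCAAT, or ATTGG when it lies on the other strand) and the cell cycle homology region (CHR, here TTTGAA or TTCGAA on either strand) in capitals.
CCNA2 (chr4:121823884-121824033, minus strand): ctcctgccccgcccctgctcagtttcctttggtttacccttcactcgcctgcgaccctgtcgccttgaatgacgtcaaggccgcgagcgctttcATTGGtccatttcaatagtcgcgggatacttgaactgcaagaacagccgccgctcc
CCNB1 (chr5:69167000-69167149, plus strand): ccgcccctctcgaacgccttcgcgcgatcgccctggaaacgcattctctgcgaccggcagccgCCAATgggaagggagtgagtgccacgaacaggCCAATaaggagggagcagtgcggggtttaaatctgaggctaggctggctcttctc
CCNB2 (chr15:59104996-59105145, plus strand): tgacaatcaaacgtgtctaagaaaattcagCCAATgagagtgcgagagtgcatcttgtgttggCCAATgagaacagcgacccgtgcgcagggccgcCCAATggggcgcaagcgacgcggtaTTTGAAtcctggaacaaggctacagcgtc
CDK1 (chr10:60778328-60778477, plus strand): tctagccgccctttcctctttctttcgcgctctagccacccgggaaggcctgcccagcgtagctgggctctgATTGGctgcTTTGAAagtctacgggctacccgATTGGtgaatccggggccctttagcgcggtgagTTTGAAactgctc
CCNE1 (chr19:29811841-29811990, plus strand): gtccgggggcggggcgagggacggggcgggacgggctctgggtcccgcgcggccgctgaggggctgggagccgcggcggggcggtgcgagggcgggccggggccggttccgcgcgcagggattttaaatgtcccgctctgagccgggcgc

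CCNB2 held 3 CCAAT boxes in these bases, with first bases at -120, -87 and -54 counted from the start site, and a CHR at -29. Another CCAAT box lay further upstream, at -244. CCNB1 held 2 CCAAT boxes, at -87 and -55, and CCNA2 held 1, at -56. The CDK1 window shown held 2 CCAAT boxes, at -78 and -46, and 3 CHR matches, at -69, -13 and, beyond the bases shown, 10 after the start site. The other CDK1 window, not shown, held fewer matches: 1 CCAAT box, at -150, and 1 CHR, at -161. CCNE1 held neither motif in its window. CCND3, whose RNA was not lowered in senescence either, held a CCAAT box in 2 of its 3 windows, at -136 and -64, and no CHR. Of 35116 RefSeq windows of the same length, 34.6% held at least 1 CCAAT box and 10.8% held 2 or more, while 16.4% held at least 1 CHR. An E2F site (TTTNGCGC or TTTNGCGG, either strand) was found in both CDK1 windows and in no other window of these genes, against 3.34% of all windows. These are matches of letters only, CCAAT and CHR are short enough to occur often, and the E2F letters do not cover every form that E2F binds. The CHR search likewise covered TTTGAA and TTCGAA only. The lack of a CHR match, as in CCNA2 and CCNB1, thus does not show that a promoter lacks a CHR.

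CCNA2, CCNB1, CCNB2 and CDK1, the mitotic group, were lower in quiescent than in proliferating cells and had the deepest RNA losses of the 9 genes in senescent cells. CCNA2 (ENST00000274026) stood at 39.9 FPKM of RNA in proliferating cells of run 1, 17.5 in quiescent and 23.4 in pre-senescent cells, and at 43.2 in proliferating cells of run 2, 1.02 in senescent and 34.8 in transformed cells. Its Ribo-Seq levels, in the same order, were 48.7, 14.7, 18.2, 49.5, 1.00 and 40.9 FPKM. Both assays thus placed senescent cells at or next to the floor and transformed cells close to proliferating ones.

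CCNB1 (ENST00000256442), the main mitotic cyclin, had RNA levels of 116, 48.2 and 82.7 FPKM in proliferating, quiescent and pre-senescent cells of run 1 and of 70.4, 5.65 and 70.4 FPKM in proliferating, senescent and transformed cells of run 2. In Ribo-Seq it stood at 185, 78.2 and 83.6 FPKM in run 1 and at 138, 15.8 and 136 in run 2. It was the member of the mitotic group with the most signal left in senescence, in both assays. CCNB2 (ENST00000288207), a second B-type cyclin, had 61.9, 28.6 and 42.1 FPKM of RNA in run 1 and 39.4, 2.75 and 35.0 in run 2. Its Ribo-Seq levels were 71.1, 31.3 and 42.2 FPKM in run 1 and 53.5, 3.34 and 42.4 in run 2. The order of the conditions was that of CCNA2 and CCNB1.

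CDK1 (ENST00000448257), the kinase partner of the mitotic cyclins, had 37.1, 16.7 and 25.1 FPKM of RNA in run 1 and 35.1, 1.00 and 30.5 in run 2. In Ribo-Seq it had 80.9, 31.1 and 33.3 FPKM in run 1 and 96.7, 1.65 and 92.7 in run 2. Senescent cells were at the floor in RNA and just above it in Ribo-Seq. CDK2 (ENST00000553376), the kinase of the G1/S transition and S phase, had 55.9, 24.4 and 38.8 FPKM of RNA in run 1 and 46.8, 9.02 and 47.2 in run 2. Its Ribo-Seq levels were 79.2, 30.3 and 48.2 FPKM in run 1 and 51.3, 7.93 and 46.4 in run 2. Unlike CDK1, it stayed clear of the floor in senescent cells.

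CCND1 (ENST00000227507), the D-type cyclin that growth factors induce, had the highest level of the 9 genes in every column, and within each run it was highest in the quiescent or senescent cells. Its RNA stood at 378, 686 and 570 FPKM in proliferating, quiescent and pre-senescent cells of run 1 and at 476, 1023 and 452 in proliferating, senescent and transformed cells of run 2. In Ribo-Seq it had 784, 1670 and 1168 FPKM in run 1 and 1086, 1740 and 1049 in run 2. CCND1 ranked 34 from the top of 9699 genes in RNA of senescent cells and 125 in proliferating cells of run 1. CCND3 (ENST00000372991), another D-type cyclin, had 46.2, 32.8 and 48.2 FPKM of RNA in run 1 and 44.8, 42.5 and 60.6 in run 2. Its Ribo-Seq levels were 104, 68.5 and 73.7 FPKM in run 1 and 64.6, 44.5 and 63.7 in run 2. Quiescent and senescent cells were above proliferating cells for CCND1 and below them for CCND3 in both assays. For CCND3 in senescence the RNA difference was only -0.08 on the log2 scale. Its Ribo-Seq differences, -0.61 in quiescence and -0.54 in senescence, were smaller than the -0.69 between the proliferating columns. Its RNA difference in quiescence, -0.49, was larger than the -0.04 between those columns.

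The E-type cyclins were low transcripts and parted from each other in senescence. CCNE1 (ENST00000262643) had 6.38, 3.42 and 6.29 FPKM of RNA in run 1 and 5.62, 7.06 and 7.53 in run 2, and its Ribo-Seq levels were 4.44, 3.35 and 3.94 in run 1 and 5.67, 6.28 and 6.02 in run 2. CCNE2 (ENST00000520509) had 4.59, 2.31 and 2.59 FPKM of RNA in run 1 and 2.99, 1.00 and 1.96 in run 2. Its Ribo-Seq levels were 13.2, 8.37 and 11.4 FPKM in run 1 and 17.1, 1.00 and 15.0 in run 2. Senescent cells were at the floor for CCNE2 in both assays and slightly above proliferating cells for CCNE1 in both. For CCNE1 the log2 differences were 0.33 in RNA and 0.15 in Ribo-Seq. Between the proliferating columns, run 2 over run 1, CCNE1 differed by -0.18 and 0.35.

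**Figure D1:**
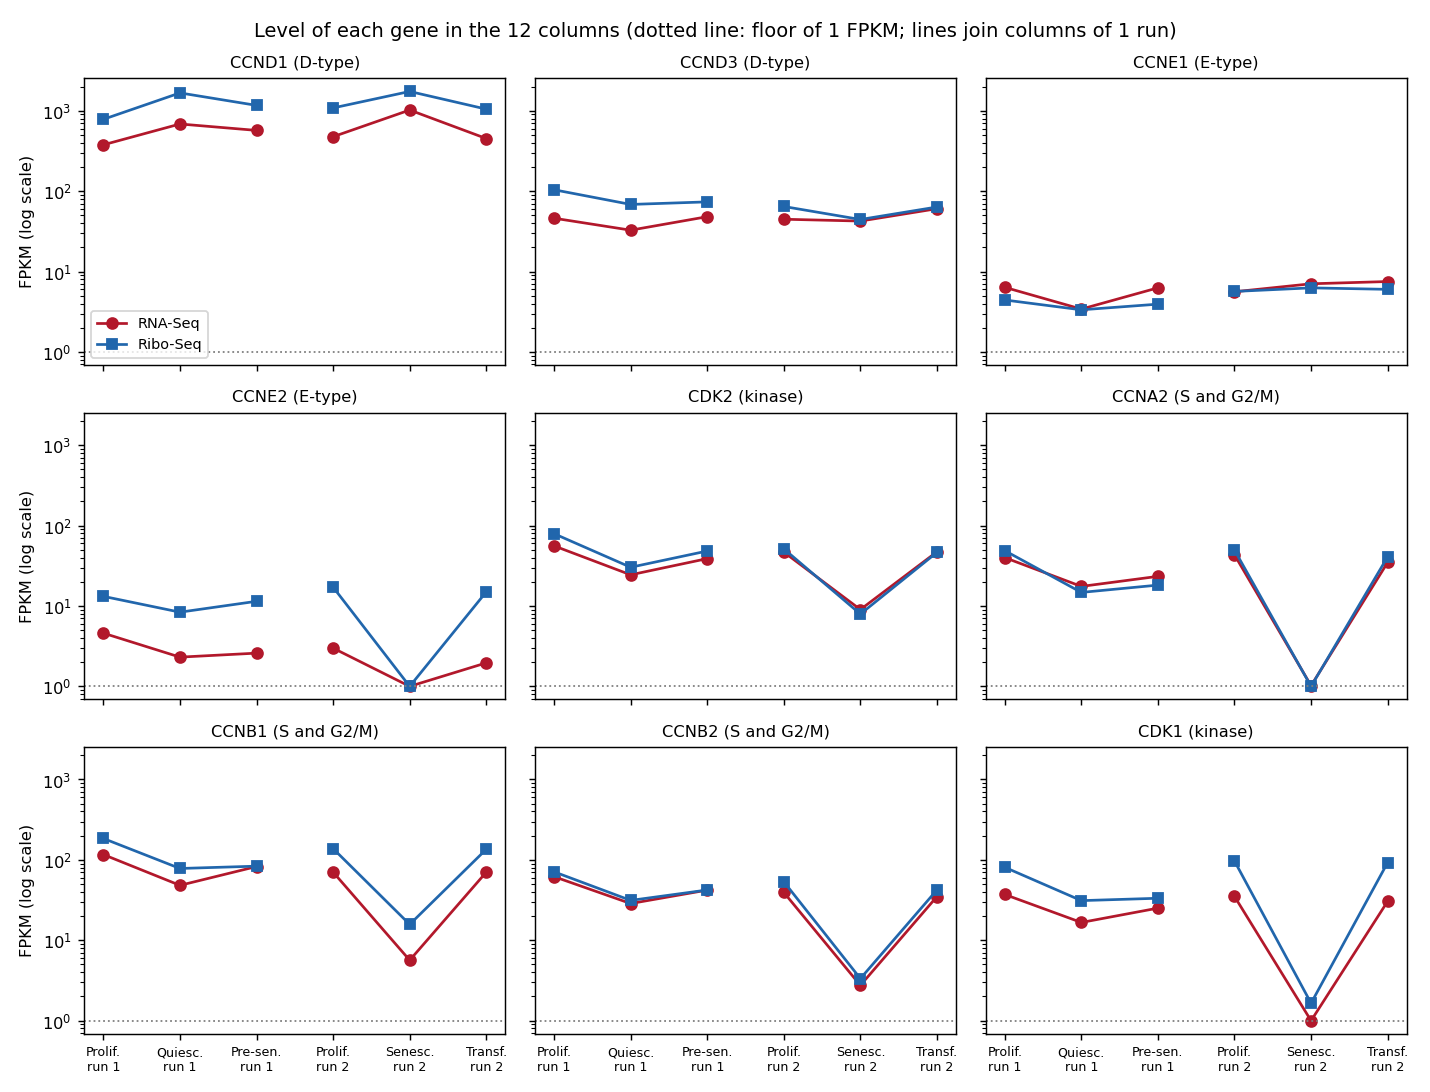
Level of each of the 9 genes in FPKM (vertical axis, log scale) in the 6 conditions and runs (horizontal axis), with circles for RNA-Seq, squares for Ribo-Seq, lines joining columns of 1 run and a dotted line at the floor of 1 FPKM; each point is 1 column and there are no error bars. CCNA2, CCNB1, CCNB2, CDK1 and CDK2 dip in senescent cells (CCNA2 from 43.2 to 1.02 FPKM of RNA) while CCND1 peaks there at 1023.

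In proliferating cells of run 1 the order of RNA levels ran CCND1, CCNB1, CCNB2, CDK2, CCND3, CCNA2, CDK1, CCNE1 and CCNE2. The only yardstick for spread is the pair of proliferating columns, which also differ by run and sequencing mode. Between them no member differed by 2-fold or more in RNA (7.99% of genes did), Ribo-Seq (18.9%) or translation efficiency (8.51%). The RNA differences of members, as log2 of run 2 over run 1, lay between -0.73 for CCNB1 and 0.33 for CCND1, and the Ribo-Seq differences between -0.69 for CCND3 and 0.47 for CCND1. CCNB2, CDK2, CCND3, CCNA2 and CDK1 lay about as close to each other as that, and CCNB2 moved below CDK2, CCND3 and CCNA2 in run 2, whereas CCND1 stood clear above all and the E-type cyclins clear below.

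Quiescence against proliferation asked how the engine responds to loss of serum. Lower by 2-fold or more in RNA were 5 of 9 members, CCNA2, CCNB1, CCNB2, CDK1 and CDK2, and none was higher, against 2.43% of 9473 genes lower and 4.12% higher. Their log2 ratios lay in a narrow band, from -1.11 for CCNB2 to -1.27 for CCNB1, so that RNA was 2.16 to 2.42 times lower. CCNE1 at -0.90 and CCNE2 at -0.99 came close to the limit of 1, CCND3 was at -0.49 and CCND1 at 0.86. The median over the 9 members was -1.11, and that over all genes -0.009. The same 5 genes were past the limit in Ribo-Seq, where 8.20% of genes were lower, with CCNA2 at -1.73, CDK2 at -1.39, CDK1 at -1.38, CCNB1 at -1.24 and CCNB2 at -1.18. CCND1 was higher in Ribo-Seq at 1.09, a 2.13-fold difference, where 9.31% of genes were higher. Against the proliferating column of run 2, the RNA count was 2 of 9, CCNA2 at -1.30 and CDK1 at -1.08. The Ribo-Seq count was 3 of 9, CCNA2 at -1.75, CDK1 at -1.64 and CCNE2 at -1.03. CCND1 was at 0.53 in RNA and 0.62 in Ribo-Seq against that column. The share of all genes past the limit against it was not computed, so these 2 counts do not set the members apart. In bulk samples, fewer cells in S, G2 or M phase and less of these RNAs per cell cannot be told apart.

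Pre-senescence against proliferation asked what 5 days of RASG12V had done. In RNA, 0 of 9 members were past the limit, against 2.05% of genes lower and 1.82% higher. The mitotic group had log2 ratios from -0.77 for CCNA2 to -0.49 for CCNB1. CDK2 was at -0.53, and CCNE2, a low transcript at 2.59 against 4.59 FPKM, had the lowest ratio of the 9, at -0.83. CCND3 was at 0.06 in RNA and -0.50 in Ribo-Seq. In Ribo-Seq, CCNA2 at -1.42, CDK1 at -1.28 and CCNB1 at -1.14 were lower by 2-fold or more, 3 of 9 members against 10.6% of genes. CCND1 was at 0.59 in RNA and 0.58 in Ribo-Seq, and CCNE1 at -0.02 and -0.17. The Ribo-Seq log2 ratio was lower than the RNA log2 ratio for every member except CCNE2. The gap was only -0.02 for CCND1. For CCNE1, CDK2 and CCNB2, at -0.15, -0.19 and -0.20, it was near the median gap of all genes, -0.148. The median over all genes was 0.037 in RNA and -0.124 in Ribo-Seq. Against the proliferating column of run 2, the Ribo-Seq count was 2 of 9, with CCNB1 at -0.72. The share of all genes against that column was not computed, so this count does not set the members apart. This Ribo-Seq column is 1 library.

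Senescence against proliferation was the same comparison after 14 days. In RNA, 6 of 9 members were lower by 2-fold or more, against 13.2% of 9560 genes, and 1, CCND1, was higher, against 7.19%. CCNA2 was 42.4 times lower, CCNB2 14.3 times, CCNB1 12.5 times and CDK2 5.18 times. CDK1 and CCNE2 were at the floor, so their differences are lower bounds: CDK1 was at least 35.1-fold lower and CCNE2 at least 2.99-fold lower. The CCNE2 difference rests on 2.99 against 1.00 FPKM and is not past the limit with 1 added before the log (-0.996 on the log2 scale), with a filter of 5 FPKM or at 3-fold. Only 0.08% of genes had a lower RNA log2 ratio than CCNA2, and 0.16% a lower one than CDK1. CCND1 was 2.15-fold higher, and CCND3 at -0.08 and CCNE1 at 0.33 on the log2 scale were within 2-fold. The median log2 ratio over the S and G2/M cyclins was -3.84, over the 4 G1 cyclins 0.13 and over all genes -0.015.

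Ribo-Seq gave the same 6 genes as lower, against 16.8% of 9544 genes. CCNA2 was at least 49.5-fold lower and CCNE2 at least 17.1-fold lower, since both were at the floor in senescent cells. CDK1 was 58.6 times lower, CCNB1 8.76 times lower and CDK2 6.47 times, and CCNB2 was at -4.00 on the log2 scale. CCND1 was 1.60-fold higher in Ribo-Seq, within the limit. These losses were larger than any difference of these 9 genes between the proliferating columns of the 2 runs, and with the proliferating column of run 1 as control the same 7 members were past the limit in RNA. In Ribo-Seq that control gave the same 6 genes and added CCND3, at -1.23, and CCND1, at 1.15. The share of all genes past the limit against that control was not computed. The proliferation markers of the same cells moved with them: MKI67 went from 44.0 to 1.00 FPKM of RNA and PLK1 from 60.7 to 1.40.

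Transformation against proliferation set cells with RASG12V, the p53 and p16INK4A knockdowns and SV40 small T against proliferating cells. It does not single out RASG12V. None of the 9 members was past the limit in RNA, where 5.39% of 9593 genes were lower and 4.97% higher, or in Ribo-Seq, where 12.8% were past it in either direction. The RNA log2 ratios lay between -0.61 for CCNE2 and 0.43 for CCND3, and those of Ribo-Seq between -0.34 for CCNB2 and 0.09 for CCNE1. CCNB1 differed by -0.002 and -0.03 and CCND1 by -0.08 and -0.05. CCNA2 was at -0.31 in RNA and -0.28 in Ribo-Seq, CDK1 at -0.20 and -0.06, and CDK2 at 0.01 and -0.145. All these values are within the span between the proliferating columns of the 2 runs except CCND3 and CCNE1 in RNA, at 0.43 and 0.42.

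Senescent and transformed cells, both given RASG12V, were also set directly against each other. They differ at once in the knockdowns, small T and the way RASG12V was supplied. In RNA 5 of 9 members were lower in senescent cells by 2-fold or more, against 15.3% of 9567 genes, and CCND1 was higher, 2.26-fold, against 8.19%. CCNA2 was 34.1 times lower, CDK1 at least 30.5-fold lower, CCNB2 12.7 times, CCNB1 12.5 times and CDK2 5.23 times. CCNE2 had 1.00 against 1.96 FPKM, a value too near the floor to reach the limit. In Ribo-Seq 6 of 9 were lower, against 17.5%, CCNE2 by at least 15.0-fold and CDK1 56.2 times. CCND3 was at -0.51 and -0.52 on the log2 scale in the 2 assays, and CCNE1 at -0.09 and 0.06. The transformed and proliferating columns of run 2 are both compared with the same senescent column, so the 2 sets of values are not independent.

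**Figure D2:**
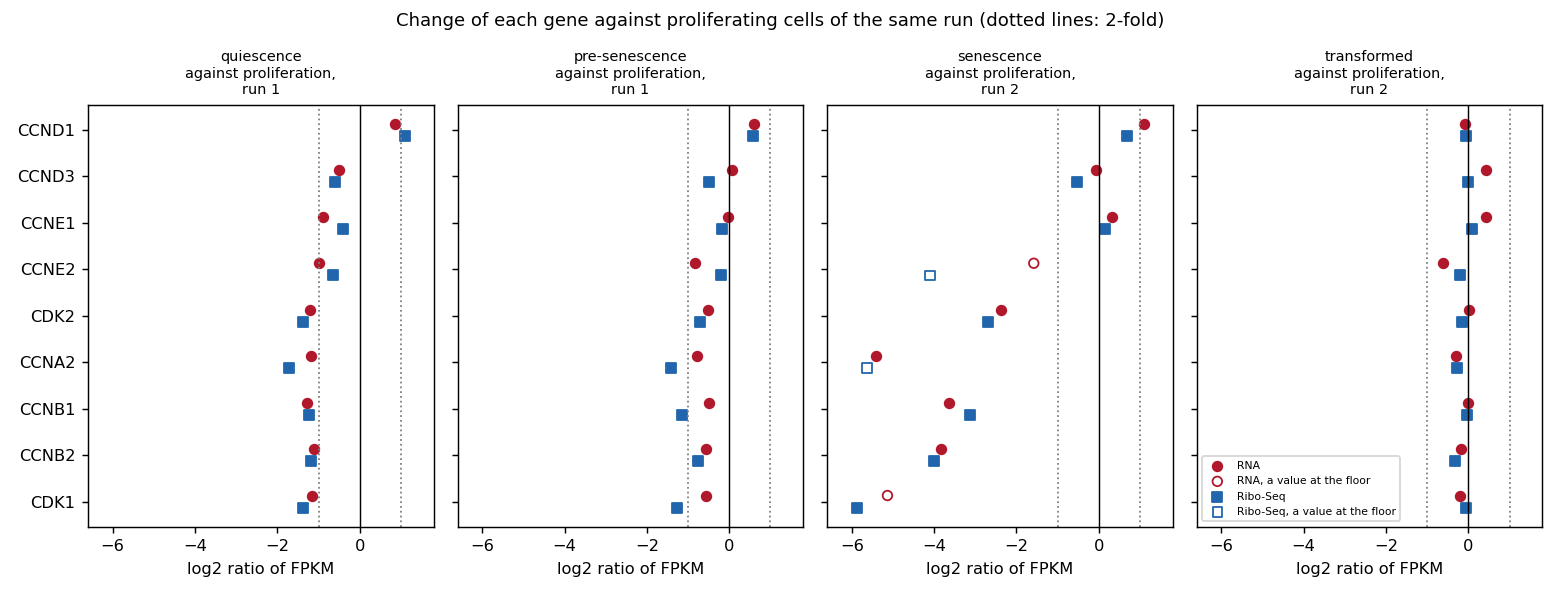
Log2 ratio of FPKM (horizontal axis) of each gene (vertical axis) against the proliferating cells of the same run in 4 panels, with circles for RNA-Seq, squares for Ribo-Seq, open symbols where a value was at the floor and dotted lines at a 2-fold difference. The mitotic group lies at -1.1 to -1.7 in quiescence and at -3.1 to -5.9 in senescence, while in the transformed panel no point reaches a dotted line.

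Translation efficiency (TE), the log2 of Ribo-Seq over RNA FPKM, tells how much of a difference in translation goes beyond the RNA. RNA-Seq reads were counted over the whole transcript and Ribo-Seq reads over the coding sequence, so its level depends on both lengths and its differences between conditions are the better guide. In no comparison did a member reach 2-fold in TE: 0 of 9 in quiescence against 7.06% of all genes, 0 of 9 in pre-senescence against 13.2%, 0 of 6 with a value in senescence against 8.55%, 0 of 9 in transformed cells against 2.69% and 0 of 6 for senescent against transformed cells against 4.97%. CCNA2, CCNE2 and CDK1 have no TE in senescence because a value was at the floor. In senescence against proliferation CCNE2 was at least 17.1-fold lower in Ribo-Seq and at least 2.99-fold lower in RNA. For every member with a value, the Ribo-Seq difference was within 2-fold of the RNA difference. Most genes were within that limit too, so these counts do not set the members apart.

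Within that limit, CCNB1 had the highest TE difference of the 6 in senescence, at 0.51, with a TE of 0.97 in proliferating and 1.48 in senescent cells. CCND1 was at -0.42, from 1.19 to 0.77, and CCND3 at -0.46, from 0.53 to 0.07. CCND3 TE differed as much between the proliferating columns of the 2 runs, by -0.65. In pre-senescence CDK1 was at -0.72, CCNA2 at -0.65 and CCNB1 at -0.65, and CCNE2 at 0.62, with the median of all genes at -0.148. CCNE2 had the highest TE of the 9 genes wherever it was above the floor, from 1.52 in proliferating cells of run 1 to 2.93 in transformed cells. In quiescent, pre-senescent, transformed and run 2 proliferating cells it exceeded the 95th percentile of all genes, which lay between 1.83 and 2.03. Its RNA there was between 1.96 and 2.99 FPKM, near the floor, and its TE differed by 1.00 between the proliferating columns, the largest TE difference of any member between them. CCNE1 had a TE below the median of all genes in every column, from -0.68 to 0.01.

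The balance of G1 against S and G2/M cyclins was given by summed FPKM. In RNA, the 4 G1 cyclins together had 1.99 times the sum of CCNA2, CCNB1 and CCNB2 in proliferating cells of run 1, 7.67 times in quiescent and 4.24 times in pre-senescent cells. In run 2 that ratio was 3.46 in proliferating, 3.73 in transformed and 114 in senescent cells. In Ribo-Seq it was 2.98, 14.1 and 8.73 in run 1 and 4.87, 5.18 and 89.1 in proliferating, transformed and senescent cells of run 2. The sum of G1 cyclins is mostly CCND1, which made up 57.8% of the RNA of all 7 measured cyclins in proliferating cells of run 1 and 94.5% in senescent cells. CDK1 RNA was 0.65 to 0.75 times that of CDK2 in the other 5 columns and 0.11 times in senescent cells, so that both kinases were lower in senescence and CDK1 by more. In run 1 that proportion was 0.68 in quiescent and 0.67 in proliferating cells, and in run 2 it was 0.65 in transformed and 0.75 in proliferating cells.

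**Figure D3:**
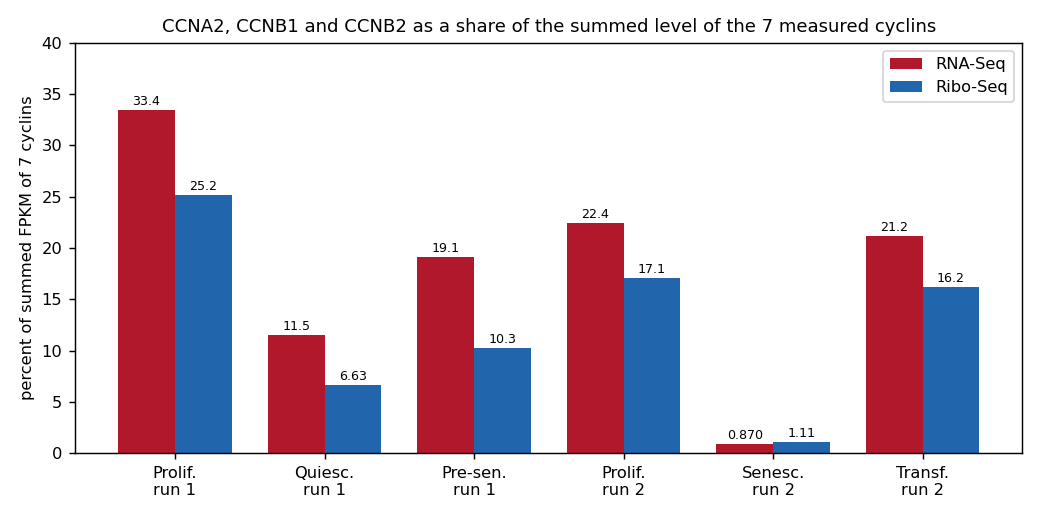
Share of CCNA2, CCNB1 and CCNB2 in the summed FPKM of the 7 measured cyclins, in percent (vertical axis, from 0), in the 6 conditions and runs (horizontal axis), with bars for RNA-Seq and Ribo-Seq. The share is 33.4% of RNA in proliferating and 11.5% in quiescent cells of run 1, and 22.4% in proliferating, 0.870% in senescent and 21.2% in transformed cells of run 2.

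Other genes of the engine were taken from lists by function, and each list is described by its RNA counts beside the shares of all genes given above. Of 25 other cyclins and CDKs with a row, 1 was lower and 1 higher in quiescence, 0 in pre-senescence, 3 lower and 1 higher in senescence and 1 higher in transformed cells, and the list's median log2 ratio lay between -0.058 and 0.151. CDK4 and CDK6, the kinases of the D-type cyclins, were at -0.43 and 0.22 in senescence and at -0.22 and -0.49 in quiescence, within 2-fold in RNA, although CDK4 Ribo-Seq was at -1.20 in senescence. CCNF, a cyclin that serves as an F-box subunit, went from 16.1 to 1.58 FPKM in senescence and from 21.7 to 8.15 in quiescence, the latter just within 2-fold of the 16.1 in run 2. CCNG1, an atypical cyclin, was higher in senescence, at 131 against 54.4 FPKM, and CCNG2, which is linked to cell cycle arrest, was higher in quiescence, at 5.83 against 1.66, but was also 4.77 in proliferating cells of run 2.

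CDK inhibitors did not move as one group. Of 6 with a row, 3 were lower and 2 higher in senescence, with a median of -1.29, 2 were lower in pre-senescence, 1 was lower in transformed cells and 0 were past the limit in quiescence. CDKN1A (p21), which blocks cyclin-CDK complexes, had 172 FPKM of RNA in proliferating, 814 in senescent and 80.3 in transformed cells of run 2, and 80.8, 129 and 107 in proliferating, quiescent and pre-senescent cells of run 1. CDKN2A was higher in senescent cells in RNA, 27.9 against 6.75 FPKM, and not in Ribo-Seq, 6.33 against 8.92 FPKM. Proliferating cells of run 1 had 17.2 FPKM of CDKN2A RNA, within 2-fold of the senescent value. The locus also encodes ARF, which shares exons with p16INK4A, and 1 row stands for both. CDKN1B (p27) was lower, 5.21 against 17.4, CDKN2C was at the floor in senescent cells against 17.4, and CDKN3, a phosphatase that acts on CDKs and peaks in cycling cells, had 1.31 against 25.3. CDKN1A itself differed by more than 2-fold between the proliferating columns, at 1.09 on the log2 scale.

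Regulators that act directly on the mitotic kinase were lower with it in senescence, and fewer of them in quiescence. All 7 of CDC25A, CDC25B, CDC25C, WEE1, PKMYT1, CKS1B and CKS2 were lower in senescence by 2-fold or more, with a median of -2.41, and 3 of 7 in quiescence, with a median of -0.85. Of those lower in quiescence, CDC25C at 2.92 and PKMYT1 at 10.9 FPKM were within 2-fold of proliferating cells of run 2, at 4.99 and 20.5. CDC25A, at 3.62 against 7.31 FPKM, was not. None of the 7 was past the limit in pre-senescent or transformed cells. PKMYT1, a kinase that inhibits CDK1, went from 20.5 to 1.00 FPKM in senescence, and CDC25B, a phosphatase that activates it, from 40.8 to 7.67. Activators and inhibitors of CDK1 were thus both lower in senescence.

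Among 21 genes of cyclin destruction, 5 were lower in senescence, 4 in quiescence, 1 in pre-senescence and 0 in transformed cells, and the medians lay between -0.193 and 0.043. CDC20, which directs the anaphase-promoting complex to mitotic cyclins, went from 86.2 to 2.19 FPKM of RNA in senescence and from 215 to 63.2 in quiescence, where proliferating cells of run 2 at 86.2 were within 2-fold. UBE2C, its ubiquitin-conjugating enzyme, went from 81.6 to 1.45 FPKM in senescence, and FBXO5, its inhibitor, from 18.1 to 1.00. SKP2, which targets CDKN1B for degradation, went from 18.3 to 7.97 in senescence. UBE2C, UBE2S and SKP2, also lower in quiescence, were likewise within 2-fold of proliferating cells of run 2. In quiescent cells they had 50.04, 102.67 and 11.15 FPKM, against 81.56, 130.14 and 18.25 in that control. None of the 4 genes lower in quiescence was thus past the limit against run 2. The same held for SKP2 in pre-senescence, at 10.79 FPKM. Of 19 genes that transcribe or repress the cyclins, 7 were lower and 2 higher in senescence, 5 were lower in quiescence, 3 were lower and 1 higher in pre-senescence, and 1 was lower and 1 higher in transformed cells. The median of this list between the proliferating columns was -0.42, run 2 over run 1, and its quiescence count was not checked against run 2. FOXM1 and MYBL2, both activators of mitotic genes, went to the floor in senescence from 35.1 and 27.8 FPKM, E2F1 went from 13.6 to 2.23 and RBL1 from 7.15 to 1.00. E2F7, a repressor among the E2F factors, was higher in pre-senescent cells, 43.1 against 18.9, and in transformed cells, 33.2 against 9.44, although proliferating cells of run 1 at 18.9 were within 2-fold of the transformed value.

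All 7 proliferation markers with a row were lower by 2-fold or more in senescence, with a median of -4.63, and in quiescence, with a median of -1.20, and none was past the limit in pre-senescent or transformed cells. BUB1, a mitotic checkpoint kinase, went from 25.2 to 1.02 FPKM in senescence and from 38.8 to 15.7 in quiescence, the latter within 2-fold of the 25.2 in run 2. Between the proliferating columns, run 2 over run 1, the median log2 ratio of the marker list was -0.62. The quiescence count of the markers thus depends on the control used.

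**Figure D4:**
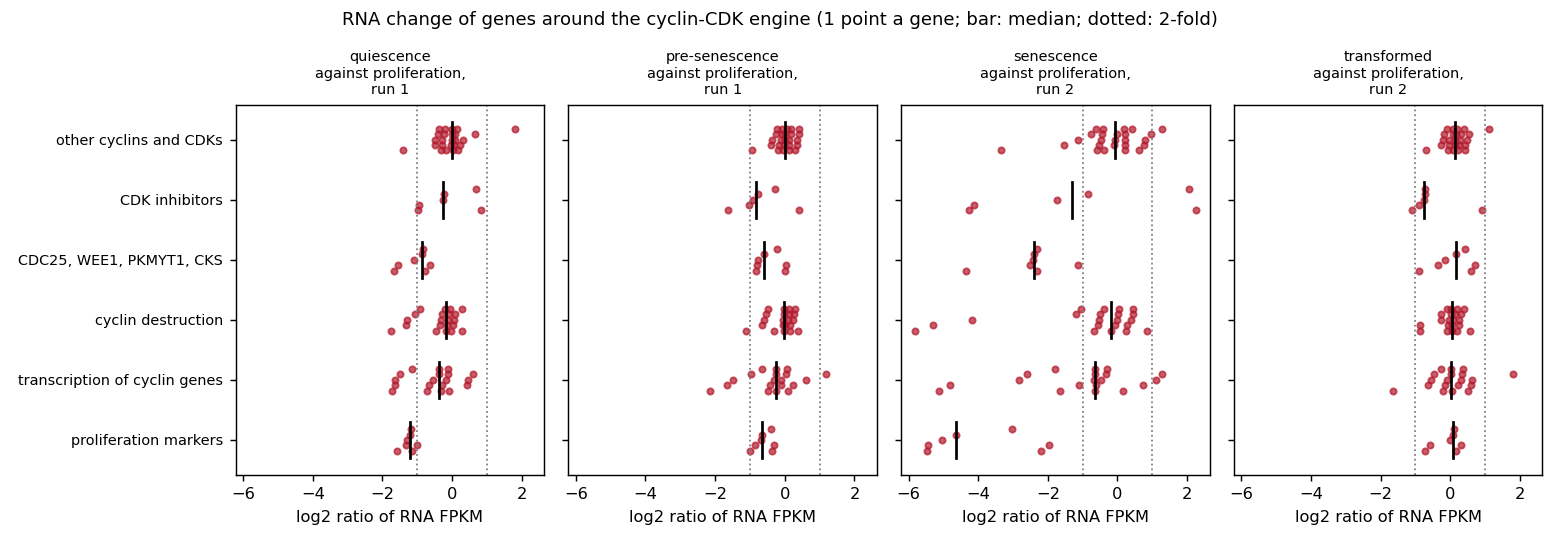
Log2 ratio of RNA FPKM (horizontal axis) of the genes of 6 lists (vertical axis) against proliferating cells of the same run, 1 point a gene, with a bar at the median of each list and dotted lines at 2-fold. In senescence the regulators of CDK phosphorylation have a median of -2.41 and the proliferation markers one of -4.63, while the medians of the other cyclins and CDKs lie between -0.058 and 0.151 in the 4 panels.

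Genes whose pattern was most like the mean of CCNA2, CCNB1, CCNB2 and CDK1, by Pearson r of log2 FPKM over the 12 columns, were FBXO5 at 0.996, KIF11 at 0.995, BUB1B at 0.995, ANLN at 0.994 and CDCA8 at 0.994, among 4283 genes with a range of 2-fold or more in both assays. KIF11 and CDCA8 act on the mitotic spindle and chromosomes, ANLN in cytokinesis and BUB1B in the spindle checkpoint. For CCND1 they were VAT1 at 0.953, APBA1 at 0.932, TMBIM1 at 0.931, ARL6IP5 at 0.926 and WIPI1 at 0.924. VAT1 RNA stood at 106 FPKM in proliferating cells of run 1, 220 in quiescent and 350 in senescent cells. The columns share libraries between the genes and the senescent column weighs on every such value, so the r values are descriptions.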

How the data were processed

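RNA-Seq (9 libraries) and Ribo-Seq (8 libraries) were sequenced by the authors in 2 runs with reads of 50 nucleotides. The authors aligned reads with Bowtie to 1 representative protein-coding transcript per gene from Ensembl release 65 (the labels also name hg19), kept unique matches, counted RNA-Seq reads over the transcript and Ribo-Seq reads over the coding sequence, and deposited FPKM per gene, with values below 1 set to 1. Of 12 columns, 5 are the authors' combined value of several libraries, and whether reads or values were combined is not given in the sources used here. The deposited table holds no read counts per gene, so no counting interval was computed; read totals per library are not reported here.

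Members and lists were chosen with earlier results of these data known. From the deposited FPKM, log2 ratios against proliferating cells of the same run were computed with no pseudocount (Python 3.11.15, pandas 2.3.3, NumPy 2.4.6, Matplotlib 3.10.9) for genes above 1 FPKM in at least 1 of the columns compared, and for TE in all of them. A difference was called at 2-fold or more, without a test, since each condition had 1 value in a run; a test across replicates had been planned for replicate columns only. Code was tested on simulated data. Every member was named in each comparison of a condition with proliferating cells and in that of senescent with transformed cells. From each list, names came from at most 4 genes with the largest RNA change past 2-fold in a comparison. CDK4, CDK6, CDKN1A and CDKN1B could be named whatever their change. The 5 genes most like each of 2 profiles were named too. Alternatives were a pseudocount, other filters, centring, other fold limits, the proliferating column of the other run and the condition labels of the 2 conflicting libraries. Where a listed gene has no row it was not analysed here. The level of another targeted gene is not reported here.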

Additional observations from a re-analysis of the deposited data

How the results depend on the processing

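No paired analysis was possible because the columns combine the numbered replicates, and for the same reason leaving out each replicate was not run. Counts of members past the limit changed with several settings. At 1.5-fold in place of 2-fold they were 8 in quiescence in RNA and 1 in transformed cells in RNA. In pre-senescence they were 3 in RNA, 5 in Ribo-Seq and 4 in TE. In Ribo-Seq they rose from 6 to 8 in quiescence and from 6 to 7 in senescence against proliferation. For senescent against transformed cells they rose from 6 to 7 in RNA and in Ribo-Seq. At 3-fold they were 0 in quiescence in RNA and 1 in Ribo-Seq, and 0 in pre-senescence in Ribo-Seq. For senescent against transformed cells in RNA they went from 6 to 5 at 3-fold. With the proliferating column of the other run they were 2 in RNA and 3 in Ribo-Seq in quiescence, 2 in Ribo-Seq and 1 in TE in pre-senescence, 8 in Ribo-Seq and 1 in TE in senescence, and 1 in RNA and 2 in TE in transformed cells. With no filter on low values, 1 member passed in TE in senescence, against proliferating and against transformed cells alike, because floor values then enter. In RNA of senescence against proliferation, CCNE2 alone was lost with 1 added before the log and with at least 5 FPKM, and CCNE2 and CCND1 at 3-fold. The cause of the other changes was not tested. The share of all genes past the limit was not computed for these settings or for the condition labels below. These counts thus show how the members depend on the settings, not whether the members stand out.

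With the condition labels of the 2 conflicting Ribo-Seq libraries, 6 members were past the limit in Ribo-Seq in transformed against proliferating cells and 4 in TE, 4 in TE in senescence against proliferation, and 0 in Ribo-Seq and 5 in TE in senescence against transformed cells. The Ribo-Seq log2 ratios then turned to 5.63 for CCNA2, 3.13 for CCNB1, 4.00 for CCNB2, 4.10 for CCNE2, 5.87 for CDK1 and 2.69 for CDK2 against proliferation, and to 0.28, 0.026, 0.34, 0.19, 0.061 and 0.14 for these genes against transformed cells. The RNA values do not depend on those labels. Of the single values of members, 14 of 129 moved beyond the median run-to-run difference of all genes with 1 added before the log. With the other run's control, 38 of 105 did. With no filter 0 of 129 moved, and with at least 5 FPKM 0 of 115. A filter only leaves values out and changes none that stay, so these outcomes were fixed beforehand. Median centring moved 0 of 129. It shifts each value by the median of all genes, which was furthest from 0 at -0.148, in TE of pre-senescence. The smallest run-to-run limit was 0.332, in TE, so that outcome was fixed as well. The likeness rankings shared 1 of 5 genes for the mitotic group with RNA columns only and 0 of 5 with Spearman rho, and 2 of 5 for CCND1 under each.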
